A study of Mus musculus with 8 samples.

Results

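The genes encoded on the mouse mitochondrial genome were followed across bulk RNA sequencing libraries of whole brain. They were taken as every gene that the deposited count table places on chromosome MT, which gave 37 of 54532 genes: 13 protein genes, 2 rRNA genes and 22 tRNA genes. The rule itself uses no measured value, but the members were chosen with earlier results of these data known. The libraries came from male mice of 3 months of age, 4 labelled Nsun5-KO and 4 wild type (WT). The labels' protocols speak of 5 mice per genotype from the same litter, anaesthetised with pentobarbital. TRIzol was used to extract the RNA, and the NEBNext Ultra RNA kit used for the libraries keeps no strand information. The labels name no allele design, promoter or strain. The study asked what loss of Nsun5 does in the brain. Nsun5 is a methyltransferase that places 5-methylcytosine on the large-subunit rRNA of the cytosolic ribosome.

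The mitochondrial genome is a small circle that is transcribed from both strands into long precursor RNAs. The tRNAs that lie between most of the other genes are cut out, and this releases the rRNAs and mRNAs. The 13 proteins are core subunits of respiratory complexes I, III and IV and of the ATP synthase, complex V, and the rRNAs and tRNAs serve the ribosome that translates them inside the organelle. Pieces of the mitochondrial genome have also been copied into the nuclear chromosomes, where they are annotated as pseudogenes.

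Each library held 15642086 to 17829523 counts over 22210 to 22944 detected genes. Nsun5 had 102, 124, 83 and 110 counts in Nsun5-KO-labelled libraries, against 91, 82, 103 and 109 counts in the WT libraries, so its transcript level does not separate the labels. The labels do not give which part of the gene is missing, and whether these reads lie outside it was not tested. Summed CPM (counts scaled to a common library size) of 5 neuronal markers, 1 of them below WT, was 5999 to 6729 in Nsun5-KO-labelled libraries and 4976 to 5723 in WT libraries. The 4 oligodendrocyte markers, all 4 below WT, summed to 3264 to 4708 CPM in Nsun5-KO-labelled libraries and 5089 to 5752 CPM in WT libraries. The 4 microglial markers, 3 of them below WT, summed to 175 to 188 CPM in Nsun5-KO-labelled libraries and 190.0 to 205 CPM in WT libraries. These 3 lists did not overlap between the groups, while the astrocyte, endothelial, choroid plexus, blood, muscle and liver markers did, and no marker was at 0 in all libraries. Of all single genes tested, 3.47% had CPM groups that did not overlap lower in Nsun5-KO-labelled libraries and 1.88% higher. No such share was taken over sums of genes like these. The part of the marker differences in the values below was not tested.

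Part of the mitochondrial genome has a near-identical nuclear copy, and its sequences are shown here because the deposited counts of the genes in it stand apart from the others. The region from position 6390 to 11042 of MT, 4653 bases, has a copy on the minus strand of chromosome 1, at chr1:24611535-24616188 (GRCm38, the assembly called mm10). The copy carries 7 annotated pseudogenes. A comparison of GENCODE M21 transcripts found 5 of them identical to the mitochondrial gene over the aligned bases and 2 mismatches in all. The first pair shown has no mismatch, the start of mt-Co2 (MT:7013-7072, plus strand) and of its copy Gm28661 (chr1:24615506-24615565, minus strand). The next pair holds a mismatch, the start of mt-Nd3 (MT:9459-9518, plus strand) and of Gm28438 (chr1:24613060-24613119, minus strand). The last pair, from outside the chromosome 1 stretch, shows a more diverged copy, mt-Cytb (MT:14146-14205, plus strand) and Gm11410 (chr4:80003990-80004049, plus strand). Capitals mark the bases that differ within a pair.
mt-Co2: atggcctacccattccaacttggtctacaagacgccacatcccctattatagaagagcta
Gm28661: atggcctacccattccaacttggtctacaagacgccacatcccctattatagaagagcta
mt-Nd3: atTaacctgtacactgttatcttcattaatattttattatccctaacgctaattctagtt
Gm28438: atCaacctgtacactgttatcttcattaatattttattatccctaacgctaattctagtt
mt-Cytb: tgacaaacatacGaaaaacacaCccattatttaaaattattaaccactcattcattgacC
Gm11410: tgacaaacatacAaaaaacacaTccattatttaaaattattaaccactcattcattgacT

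With positions counted from 1 at the mitochondrial gene's 5′ end, the mismatches within the 7 annotated pieces were T3C in mt-Nd3 against Gm28438 and A1066T in mt-Co1 against Gm29216. The bases between these pieces were not compared, and the stretch is 4654 bases long on chromosome 1, so it also differs in length, between the mt-Nd3 and mt-Nd4l pieces. A read that lies wholly in the identical bases of a piece fits both places equally well. The stretch holds 6 protein genes whole: mt-Co2, mt-Atp8, mt-Atp6, mt-Co3, mt-Nd3 and mt-Nd4l. It also holds 5 tRNA genes, 31.3% of mt-Co1 and 63.6% of mt-Nd4. For mt-Atp8 and the tRNA genes this rests on position alone, since no pseudogene is annotated over them. The genes mt-Nd1, mt-Nd2, mt-Nd5, mt-Nd6 and mt-Cytb lie outside it. Cut into overlapping windows of 50 bases, mt-Co2 had 100% of its windows exactly in an annotated nuclear transcript, mt-Co3 99.9%, mt-Atp6 99.5%, mt-Nd4l 98.8% and mt-Nd3 98.0%. The share was 62.2% for mt-Nd4 and 51.1% for mt-Co1. It was 8.19% for mt-Nd2, 7.61% for mt-Nd5, and 0% for mt-Nd1, mt-Nd6, mt-Cytb and mt-Rnr1. It was also 0% for mt-Atp8, whose chromosome 1 counterpart lies in no annotated transcript and so could not be compared.

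The levels per length followed that division. In FPKM (fragment counts divided by gene length and scaled to library size), the 5 protein genes outside the stretch averaged 2603 to 8526 over the 8 libraries. The 6 protein genes wholly inside it averaged 7.40 to 238 FPKM. The gene with the highest level was mt-Co1, the catalytic subunit of cytochrome c oxidase (complex IV), at 12769 ± 828 FPKM in Nsun5-KO-labelled libraries and 13964 ± 1756 FPKM in WT libraries (SD, n = 4 each, as for every mean ± SD below). Next came mt-Cytb, the only mitochondrially encoded subunit of complex III, at 7966 ± 694 FPKM in Nsun5-KO-labelled libraries and 9086 ± 1149 FPKM in WT libraries. The order then ran through mt-Nd1, mt-Nd2, mt-Nd4, mt-Nd5 and mt-Nd6, all subunits of complex I. This order was the same in each of the 8 libraries, although the ranges over libraries of mt-Cytb and mt-Nd1, of mt-Nd4 and mt-Nd5, and of mt-Nd5 and mt-Nd6 overlapped.

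After mt-Nd6, whose lowest library held 2167 FPKM, came mt-Atp6, whose highest held 367 FPKM. The gene mt-Atp6, the proton channel subunit of the ATP synthase, averaged 4.44% of the mean level of the 5 genes outside the stretch. The same percentage was 2.64% for mt-Co2, 1.98% for mt-Nd3, 1.55% for mt-Co3, 1.41% for mt-Nd4l and 0.138% for mt-Atp8. Among these, mt-Co2 exceeded mt-Nd3 in 8 of 8 libraries, mt-Nd3 exceeded mt-Co3 in 6 of 8, and mt-Co3 exceeded mt-Nd4l in 4 of 8, so the order of mt-Nd3, mt-Co3 and mt-Nd4l did not hold beyond the spread between libraries. The lowest level was that of mt-Atp8, a small ATP synthase subunit, at 3.76 ± 1.53 FPKM in Nsun5-KO-labelled libraries and 11.0 ± 8.03 FPKM in WT libraries. How the authors' counter treated reads that fit several places is not given in the sources used here, and its part in these low values was not tested. Values of the genes in the stretch are therefore uncertain as measures of their mitochondrial transcript.

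**Figure D1:**
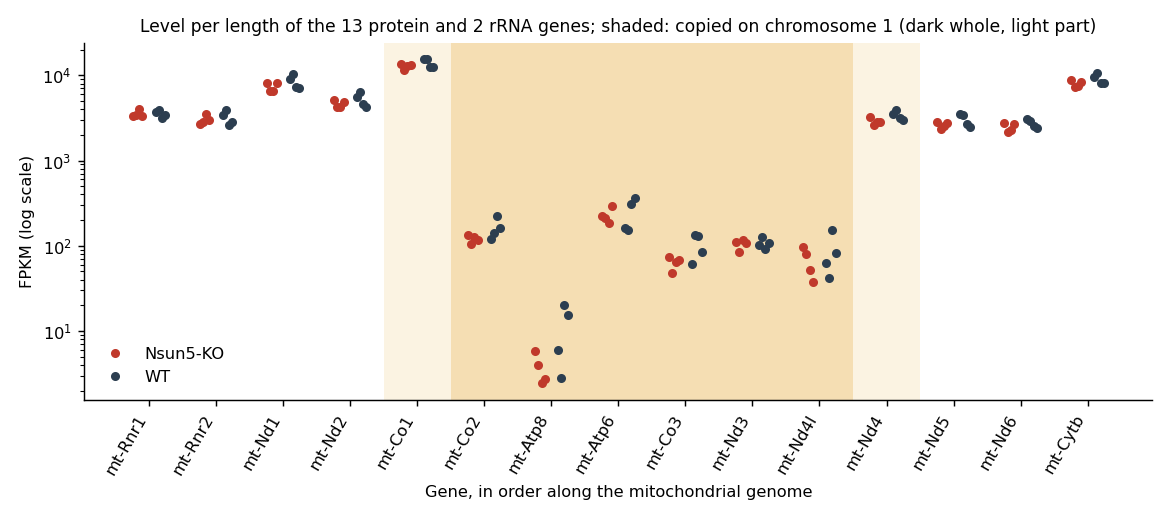
FPKM on a log axis (vertical) of the 13 protein and 2 rRNA genes in their order along the mitochondrial genome (horizontal), with a point per library, libraries labelled Nsun5-KO left of WT libraries. Genes wholly inside the stretch copied on chromosome 1 (dark shading) lie between 2.43 and 367 FPKM, and mt-Co1 and mt-Nd4, partly inside it (light shading), lie with the unshaded genes.

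The mitochondrial genes together took a smaller mean share of all counts in Nsun5-KO-labelled libraries, but the groups overlapped. The share was 6.23%, 5.52%, 5.74% and 6.16% in Nsun5-KO-labelled libraries, against 7.27%, 7.68%, 5.97% and 5.93% in WT libraries. WT replicates 1 and 2 were the highest, and the other WT libraries lay inside the range of Nsun5-KO-labelled libraries. The means were 5.91 ± 0.338% in Nsun5-KO-labelled libraries and 6.71 ± 0.896% in WT libraries, a difference of -0.80 percentage points. Without WT replicates 1 and 2 the difference was -0.04 percentage points. In bulk tissue, a change in the cells that make up a sample and a change in mitochondrial RNA per cell cannot be told apart.

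Within the mitochondrial counts, protein genes made up 87.9%, 85.4%, 83.7% and 86.8% in Nsun5-KO-labelled libraries and 87.2%, 86.7%, 87.6% and 86.5% in WT libraries. The rRNA genes made up 11.8%, 14.3%, 15.99% and 12.9% in Nsun5-KO-labelled libraries, against 12.6%, 13.02%, 12.2% and 13.3% in WT libraries. The libraries labelled Nsun5-KO enclosed the WT range at both ends, with an SD of 1.81 percentage points around 13.7% in Nsun5-KO-labelled libraries and of 0.490 around 12.8% in WT libraries. The difference between these means was 0.252 percentage points without replicate 3 labelled Nsun5-KO, and that of the protein genes was -0.278 without it, against -1.03 with all libraries. Replicate 3 labelled Nsun5-KO, the highest, also stood apart in nuclear-encoded rRNA genes, at 0.193% of its counts against 0.0201% to 0.0345% in the other libraries, and the part of this in its mitochondrial rRNA share was not tested. The tRNA genes made up 0.267%, 0.297%, 0.338% and 0.320% of mitochondrial counts in Nsun5-KO-labelled libraries and 0.234%, 0.236%, 0.299% and 0.289% in WT libraries. WT replicates 1 and 2 lay below all other libraries, and WT replicates 3 and 4 lay among those labelled Nsun5-KO. As a share of all counts, the tRNA genes took 0.0164% to 0.0197% in Nsun5-KO-labelled libraries and 0.0170% to 0.0181% in WT libraries. Counting error was small beside the spreads of the mitochondrial, protein and rRNA shares. In the tRNA share of mitochondrial counts, the 95% Wilson intervals reached at most 0.0117 percentage points to each side. The SD there was 0.0309 in Nsun5-KO-labelled libraries and 0.0343 in WT libraries. For the tRNA share of all counts the intervals reached 0.000616 to 0.000667 in WT libraries, above the SD of 0.000539 there. The widest 95% Wilson interval for shares of mitochondrial, protein, rRNA and tRNA genes, the complexes and mt-Nd6 reached 0.109 percentage points to each side. That widest interval was for the complex I share.

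**Figure D2:**
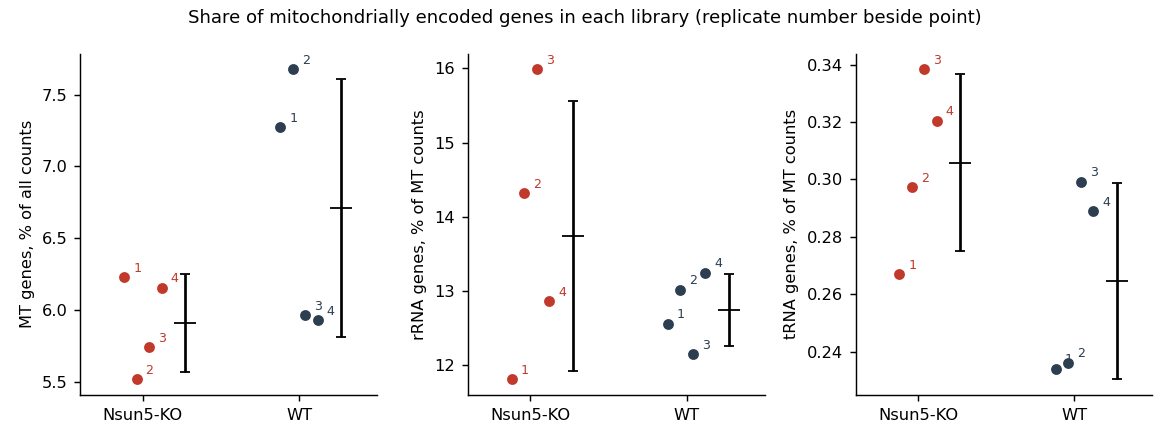
Share of mitochondrially encoded (MT) genes in all counts, and of rRNA and tRNA genes in MT counts, in percent (vertical, not starting at 0), with a point per library numbered by replicate and bars for mean ± SD of 4 libraries. The MT share of WT replicates 1 and 2 lies above 7%, while the other WT libraries and all those labelled Nsun5-KO lie between 5.52% and 6.23%.

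All 13 protein genes passed the low-count filter and were tested for genotype with edgeR's quasi-likelihood test, with Benjamini-Hochberg adjustment over all genes tested. None reached an adjusted p of 0.05, and edgeR called 0 of 16062 genes in all (0%). All 13 had a log2 fold change below 0, libraries labelled Nsun5-KO over WT, with a median of -0.20. Over all genes tested, 51.4% had a fold change below 0 and the median was -0.01. These genes come from shared precursors and one scaling per library, so their signs are not separate observations, and without WT replicates 1 and 2 only 7 of the 13 were below 0, with a median of -0.04. At an unadjusted p below 0.05, 4 of the 13 were lower (mt-Nd4, mt-Co2, mt-Co3 and mt-Atp8), against 5.05% of all genes lower and 5.3% higher. All 4 lie partly or wholly in the copied stretch, as do 8 of the 13. DESeq2 called none of the mitochondrial genes, against 0.3% of its 13977 genes lower and 0.394% higher. No mitochondrial gene had CPM groups that did not overlap, while 3.47% of all genes did so lower and 1.88% higher.

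Complex I, which feeds electrons from NADH into the chain, has 7 mitochondrially encoded subunits. Together they held 42.9 ± 0.819% of mitochondrial protein-gene counts in Nsun5-KO-labelled libraries and 43.6 ± 1.25% in WT libraries. This difference was -0.703 percentage points, and -0.252 without WT replicate 2. Among only the 5 protein genes outside the copied stretch the difference was 0.179. That value leaves out mt-Co1 and sets complex I against mt-Cytb alone, so it is not the same quantity. The membrane subunit mt-Nd1 had 7623, 6448, 6198 and 7744 CPM in Nsun5-KO-labelled libraries, against 8901, 10049, 7047 and 6934 CPM in WT libraries. WT replicates 1 and 2 were the highest and the remaining libraries were interleaved. The log2 fold change of mt-Nd1 was -0.21, with a 95% interval of -0.50 to 0.08 and an adjusted p of 0.626 (edgeR). The same arrangement held for mt-Nd2, at 4789 ± 469 CPM in Nsun5-KO-labelled libraries and 5456 ± 957 CPM in WT libraries, and for mt-Nd5, at 4774 ± 395 CPM in Nsun5-KO-labelled libraries and 5564 ± 938 CPM in WT libraries. Their log2 fold changes were -0.16 and -0.20. Both are antiporter-like proton-pumping subunits.

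The proton-pumping subunit mt-Nd4 had 4353, 3684, 3815 and 3908 CPM in Nsun5-KO-labelled libraries, against 4979, 5446, 4443 and 4208 CPM in WT libraries. Only replicate 1 labelled Nsun5-KO reached into the WT range. Its log2 fold change was -0.25 ± 0.0941 (SE), with an unadjusted p of 0.0205 and an adjusted p of 0.412 (edgeR), and it was -0.10 without WT replicates 1 and 2. As a share of mitochondrial counts, mt-Nd4 took 6.99%, 6.68%, 6.65% and 6.35% in Nsun5-KO-labelled libraries and 6.85%, 7.09%, 7.45% and 7.10% in WT libraries, again overlapping through replicate 1 labelled Nsun5-KO. The small subunits mt-Nd3 and mt-Nd4l, inside the copied stretch, had log2 fold changes of -0.04 and -0.35, with adjusted p of 0.931 and 0.844 (edgeR). For mt-Nd4l the counts were 461, 408, 246 and 199 in Nsun5-KO-labelled libraries and 321, 197, 752 and 435 in WT libraries, so WT replicate 3 was far above the rest, and without it the log2 fold change was 0.09.

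The complex I gene mt-Nd6 is the only protein gene on the minus strand of the reference. It overlaps the end of mt-Nd5, from 13552 to 13565, and since the library kit does not mark strand, reads of the opposite transcript cannot be told apart from its own. Its share of mitochondrial protein-gene counts was 2.59%, 2.43%, 2.42% and 2.59% in Nsun5-KO-labelled libraries and 2.58%, 2.29%, 2.57% and 2.47% in WT libraries. The means were 2.51 ± 0.0959% in Nsun5-KO-labelled libraries and 2.48 ± 0.133% in WT libraries. An exact two-sided permutation test over the 70 labelings, whose smallest p is 0.0286, gave p = 0.857 for this difference of 0.03 percentage points, and 0.857 after adjustment over the 2 values tested this way. Leaving out replicate 4 labelled Nsun5-KO gave -0.000541 percentage points, and leaving out WT replicate 2 gave -0.0332, so the sign was not stable. The CPM of mt-Nd6 was 1277 ± 144 in Nsun5-KO-labelled libraries and 1443 ± 169 in WT libraries.

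For complex III, mt-Cytb, which passes electrons from ubiquinol towards cytochrome c, had 9888, 8452, 8440 and 9519 CPM in Nsun5-KO-labelled libraries, against 11103, 12096, 9505 and 9542 CPM in WT libraries. Replicate 1 labelled Nsun5-KO lay above WT replicates 3 and 4, and replicate 4 lay between them. The log2 fold change of mt-Cytb was -0.19, with a 95% interval of -0.41 to 0.02 and an adjusted p of 0.525 (edgeR), and it was -0.04 without WT replicates 1 and 2. Complex III took 17.8 ± 0.209% of protein-gene counts in Nsun5-KO-labelled libraries and 18.1 ± 0.454% in WT libraries.

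Complex IV, which reduces oxygen, took 38.9 ± 1.02% of protein-gene counts in Nsun5-KO-labelled libraries and 38.0 ± 0.932% in WT libraries. Nearly all of these counts were mt-Co1, of which 31.3% lies in the copied stretch. It also has a copy on chromosome 2, Gm13340, with 37 mismatches over 1545 bases. Both mt-Co2 and mt-Co3 lie wholly in the stretch, where values are uncertain. The shares of the complexes, and of protein genes in mitochondrial counts, carry the same uncertainty. The CPM of mt-Co1 was 20647, 18302, 19230 and 20398 in Nsun5-KO-labelled libraries, against 24163, 24233, 19525 and 19771 in WT libraries. Again WT replicates 1 and 2 were the highest and the rest were interleaved. Its log2 fold change was -0.13, with a 95% interval of -0.34 to 0.07 (adjusted p = 0.660, edgeR). The electron-accepting subunit mt-Co2 had 90.7, 72.5, 85.9 and 78.7 CPM in Nsun5-KO-labelled libraries and 83.3, 98.2, 158 and 112 CPM in WT libraries. The structural subunit mt-Co3 had 56.7, 37.7, 50.0 and 53.1 CPM in Nsun5-KO-labelled libraries and 48.0, 107, 104 and 67.4 CPM in WT libraries. In both genes WT replicate 1 lay among Nsun5-KO-labelled libraries and the other WT libraries lay above them. The log2 fold change was -0.43 ± 0.180 for mt-Co2 and -0.70 ± 0.275 for mt-Co3 (SE), with adjusted p of 0.458 and 0.451 (edgeR). Without WT replicate 3, that of mt-Co2 was -0.23.

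For complex V, mt-Atp8 had 19, 14, 8 and 10 counts in Nsun5-KO-labelled libraries, against 21, 9, 68 and 56 counts in WT libraries. WT replicates 3 and 4 held most of the counts, and WT replicates 1 and 2 lay inside or at the edge of the other group. The log2 fold change of -1.56, with a 95% interval of -2.80 to -0.32 and an adjusted p of 0.412 (edgeR), was -1.11 without WT replicate 3. The gene overlaps the start of mt-Atp6, from 7927 to 7969. The same WT libraries were the highest for mt-Atp6, which had 150, 147, 123 and 200 CPM in Nsun5-KO-labelled libraries and 110, 106, 214 and 255 CPM in WT libraries. WT replicates 1 and 2 were the lowest for mt-Atp6, the reverse of their place for mt-Co1, mt-Cytb and the complex I genes outside the stretch. The 6 genes wholly in the stretch together took 0.653% to 0.712% of protein-gene counts in Nsun5-KO-labelled libraries, against 0.469%, 0.554%, 1.07% and 0.978% in WT libraries. All libraries labelled Nsun5-KO thus lay between the 2 low and the 2 high WT libraries.

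**Figure D3:**
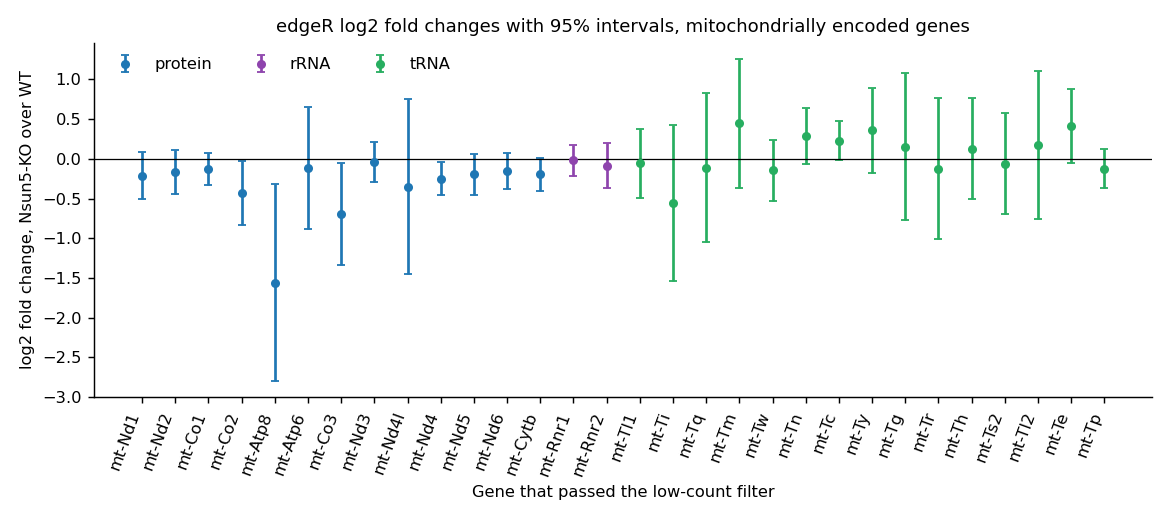
Log2 fold change, libraries labelled Nsun5-KO over WT (vertical), of the 30 mitochondrially encoded genes that passed the low-count filter (horizontal), with 95% intervals from edgeR. All 13 protein genes lie below 0, and the intervals of mt-Nd4, mt-Co2, mt-Co3 and mt-Atp8 end below 0 before adjustment over all genes.

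Counts were also assigned to the chromosome 1 copies. For mt-Co2, mt-Atp6 and mt-Co3 the counts of the copy were of the same order as those of the mitochondrial gene. Reads in the identical bases fit both places equally well, so gene and copy are not separate measurements there. Which place these reads came from was not tested. Gm28661 had 96.3, 58.1, 63.1 and 75.8 CPM in Nsun5-KO-labelled libraries, against 80.4, 92.8, 127 and 123 CPM in WT libraries, close to mt-Co2 in size. Gm10925, the copy of mt-Atp6, had 306, 53.8, 72.3 and 128 CPM in Nsun5-KO-labelled libraries and 76.7, 97.1, 96.1 and 102 CPM in WT libraries. Replicate 1 labelled Nsun5-KO stood far above the rest there, and was the highest library for Gm28437, the copy of mt-Co3, as well. The other copies, Gm29216, Gm28439, Gm10222 and Gm28438, averaged 4.61 to 32.3 CPM in Nsun5-KO-labelled libraries and 6.60 to 49.3 CPM in WT libraries. Of all 7 copies, 5 had a log2 fold change between -0.59 and -0.41, that of Gm28437 was 0.04 and that of Gm10925 was 0.62. Without replicate 1 labelled Nsun5-KO, that of Gm28437 was -0.41 and that of Gm10925 was -0.11. None passed the test (smallest adjusted p = 0.330, edgeR), and 4 were lower at an unadjusted p below 0.05, against 5.05% of all genes lower and 5.3% higher. When the counts of each copy were added to its mitochondrial gene, the log2 fold change of mt-Co2 was -0.47, that of mt-Co3 was -0.38 and that of mt-Atp6 was 0.19. For mt-Atp6 the value was -0.12 without the copy, and -0.11 with the copy added and replicate 1 labelled Nsun5-KO left out. For mt-Co3 this last setting gave -0.63. No gene was called in either form.

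**Figure D4:**
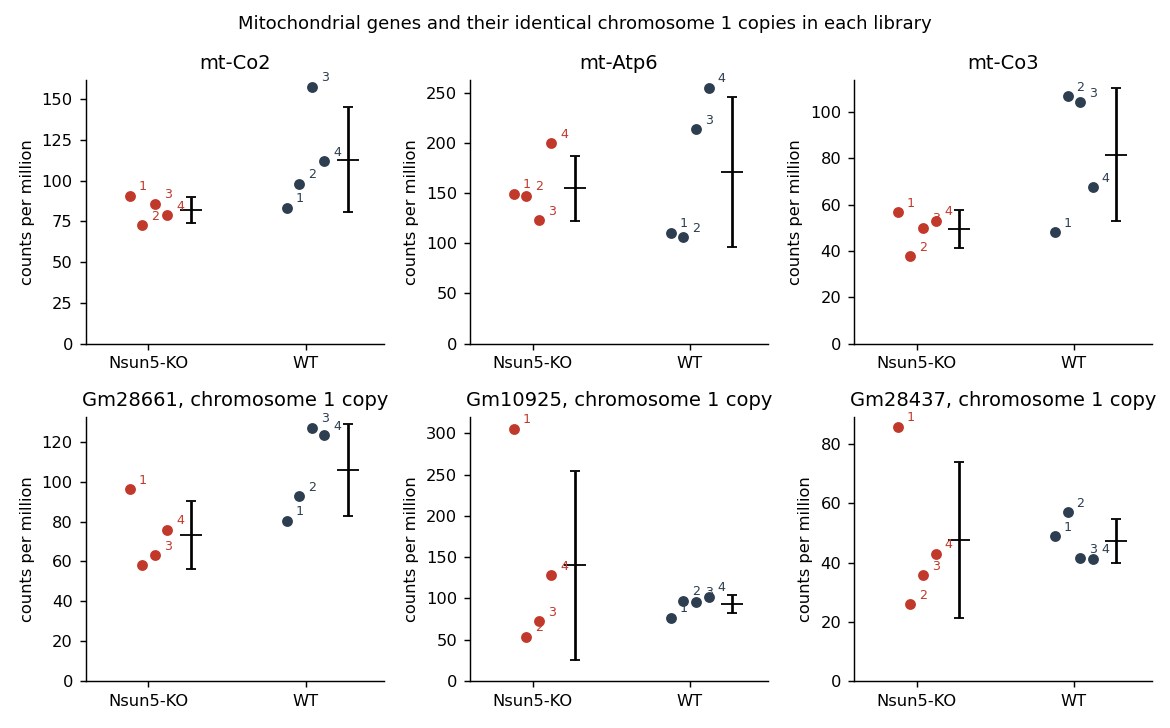
CPM (vertical, starting at 0) of mt-Co2, mt-Atp6 and mt-Co3 in the upper row and of their chromosome 1 copies in the lower row, with a point per library numbered by replicate and bars for mean ± SD of 4 libraries. Levels of mt-Co2 and its copy lie close together, while the other genes and their copies stand apart in some libraries. Replicate 1 labelled Nsun5-KO is the highest library for Gm10925 and Gm28437 but not for mt-Atp6.

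The rRNA genes of the mitochondrial ribosome lie outside the copied stretch. The large-subunit rRNA gene mt-Rnr2 had 4212, 4599, 5401 and 4717 CPM in Nsun5-KO-labelled libraries, against 5514, 6181, 4165 and 4551 CPM in WT libraries. The small-subunit rRNA gene mt-Rnr1 had 3143, 3302, 3778 and 3201 CPM in Nsun5-KO-labelled libraries, against 3623, 3816, 3084 and 3308 CPM in WT libraries. The groups overlapped for both, with log2 fold changes of -0.08 and -0.02 and adjusted p of 0.862 and 0.963 (edgeR). Without WT replicates 1 and 2 these were 0.15 and 0.10. Both genes precede the protein genes on the plus strand and share a promoter, and their ratio does not depend on library size. The count ratio of mt-Rnr2 to mt-Rnr1 was 1.34, 1.39, 1.43 and 1.47 in Nsun5-KO-labelled libraries, against 1.52, 1.62, 1.35 and 1.38 in WT libraries. The libraries labelled Nsun5-KO lay between the lower and upper pair of WT libraries, apart from replicate 1, which was the lowest. The log2 difference was -0.06 (exact two-sided permutation p = 0.457, adjusted 0.857 over the 2 values).

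The tRNA genes gave few counts, 2696 to 3518 per library over all 22, and 15 passed the low-count filter. The sequences of the 3 with the most counts are shown, with the first tRNA gene of the reference, mt-Tf, which had none. They are mt-Tp for proline (MT:15356-15422), mt-Tc for cysteine (MT:5192-5257) and mt-Tn for asparagine (MT:5089-5159), all on the minus strand, and mt-Tf for phenylalanine (MT:1-68, plus strand), from the GENCODE M21 transcripts of GRCm38. Capitals mark the anticodon.
mt-Tp: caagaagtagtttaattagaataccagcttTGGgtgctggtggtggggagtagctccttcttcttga
mt-Tc: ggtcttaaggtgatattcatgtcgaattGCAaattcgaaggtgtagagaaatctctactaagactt
mt-Tn: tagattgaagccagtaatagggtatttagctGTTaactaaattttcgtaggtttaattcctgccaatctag
mt-Tf: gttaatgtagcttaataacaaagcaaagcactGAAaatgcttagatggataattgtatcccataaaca

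The 8 tRNA genes on the minus strand held 87.1% of the tRNA counts, 20735 of 23797 over all libraries, and mt-Tp, mt-Tc and mt-Tn alone held 76.6%. The 4 genes with the most counts were all on the minus strand. Other minus-strand genes were low: mt-Tq, mt-Ta and mt-Ts1 had 90, 59 and 1 counts, below the plus-strand mt-Tl1 with 937. Since the kit does not mark strand, reads of minus-strand genes may come from either transcript: such a gene lies opposite bases of the plus-strand precursor. A count of 0 allows up to 3 counts per library, and mt-Tf and mt-Td were at 0 in every library, while mt-Ts1 and mt-Tk had 1 count each over all 8. Of the 5 tRNA genes in the copied stretch, none had more than 134 counts over all libraries. Outside it the counts ran from 0 (mt-Tf) to 10596 (mt-Tp), with mt-Ti at 128, so low counts were not particular to the stretch. The 3 genes under the filter with the most counts were mt-Ta with 59, mt-Tt with 15 and mt-Tv with 10 counts over all libraries. Whether the reads come from mature tRNAs or from longer precursors was not tested.

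Of the 15 tested tRNA genes, 7 had a log2 fold change below 0 and 8 above it, with a median of 0.13, and none was called. For mt-Tp the CPM was 72.1, 67.9, 86.5 and 75.2 in Nsun5-KO-labelled libraries and 87.2, 94.3, 84.9 and 67.7 in WT libraries, a log2 fold change of -0.12 (adjusted p = 0.754, edgeR). For mt-Tc it was 28.5, 29.2, 33.7 and 40.5 in Nsun5-KO-labelled libraries and 30.04, 29.3, 26.2 and 28.8 in WT libraries, a log2 fold change of 0.23 (adjusted p = 0.521, edgeR). For mt-Tn it was 24.9, 24.8, 25.2 and 39.0 in Nsun5-KO-labelled libraries and 24.2, 26.9, 19.7 and 24.0 in WT libraries. Replicate 4 labelled Nsun5-KO was the highest library for mt-Tc and mt-Tn, which lie side by side, and without it their log2 fold changes were 0.12 and 0.10, against 0.23 and 0.29 with it. The glutamate tRNA gene mt-Te had 12.1, 12.7, 12.6 and 14.1 CPM in Nsun5-KO-labelled libraries, against 7.66, 6.27, 11.5 and 14.0 CPM in WT libraries. Its log2 fold change was 0.41 (adjusted p = 0.535, edgeR) and was 0.05 without WT replicates 1 and 2, which were the lowest. The remaining 11 tested genes had log2 fold changes of -0.56 (mt-Ti, isoleucine) to 0.45 (mt-Tm, methionine), none with an interval that left out 0. Without WT replicate 4 that of mt-Ti was -0.11, and without WT replicates 1 and 2 that of mt-Tm was -0.09.

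**Figure D5:**
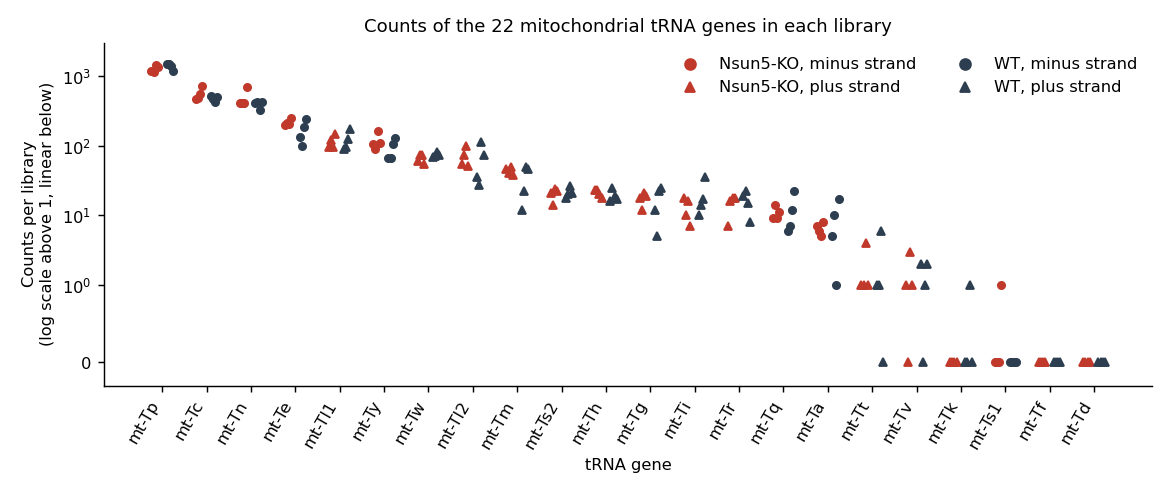
Counts per library (vertical, log scale above 1 and linear below) of the 22 mitochondrial tRNA genes in order of their summed count (horizontal), libraries labelled Nsun5-KO left of WT libraries, circles for genes on the minus strand and triangles for the plus strand. The 4 genes with the most counts are circles, and mt-Tf and mt-Td lie at 0 in every library.

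The nuclear genes that copy, transcribe and process the mitochondrial genome were taken from 4 lists. Of 70 listed genes found in the table, 69 were tested and none was called. Their median log2 fold change was 0.02, with 32 below 0 and 37 above. Of the 16 genes of mitochondrial DNA maintenance, 8 lay on each side. Tfam, which packages mitochondrial DNA and starts its transcription, had 41.5 ± 2.87 CPM in Nsun5-KO-labelled libraries and 42.6 ± 1.13 CPM in WT libraries. Polg, the catalytic subunit of the mitochondrial DNA polymerase, had a log2 fold change of 0.12, which was -0.01 without WT replicates 1 and 2. That of Dguok, a mitochondrial nucleoside kinase, was -0.21, and it was -0.09 without replicate 3 labelled Nsun5-KO. For Exog, a mitochondrial nuclease, it was 0.18, at 30.8 ± 2.58 CPM in Nsun5-KO-labelled libraries and 27.6 ± 0.841 CPM in WT libraries (adjusted p = 0.469, edgeR).

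Of 9 transcription genes, 7 were below 0. Polrmt, the mitochondrial RNA polymerase, had 21.4 ± 1.21 CPM in Nsun5-KO-labelled libraries and 22.02 ± 1.65 CPM in WT libraries. Mterf4, which brings the methyltransferase Nsun4 to the mitochondrial ribosome, had 13.6, 13.04, 11.8 and 11.9 CPM in Nsun5-KO-labelled libraries, against 10.2, 10.9, 8.999 and 10.7 CPM in WT libraries. All libraries labelled Nsun5-KO lay above all WT libraries, as in 1.88% of all genes. The log2 fold change of Mterf4 was 0.33, with an unadjusted p of 0.0127 and an adjusted p of 0.392 (edgeR). Mterf2 and Mterf1b, further members of the termination factor family, had log2 fold changes of -0.25 and -0.70, which were -0.11 without WT replicate 2 and -0.40 without WT replicate 3, Mterf1b at only 0.359 to 1.29 CPM over the libraries.

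Of 37 tested genes of RNA processing, modification and decay, 15 were below 0 and 22 above. Hsd17b10, a subunit of the enzyme that cuts the 5′ ends of mitochondrial tRNAs, had 24.9, 17.6, 18.8 and 19.0 CPM in Nsun5-KO-labelled libraries, against 23.4, 27.3, 27.9 and 24.2 CPM in WT libraries. Only replicate 1 labelled Nsun5-KO reached the WT range, and the log2 fold change was -0.33 (adjusted p = 0.412, edgeR). Fastkd5, needed for cutting at precursor ends that have no tRNA, had a log2 fold change of 0.41, and Rpusd4, a pseudouridine synthase, of 0.29. Of 7 regulators of mitochondrial biogenesis, 2 were below 0 and 5 above. Ppargc1b, a transcriptional coactivator of nuclear genes for mitochondrial proteins, had 10.5, 11.4, 12.2 and 11.4 CPM in Nsun5-KO-labelled libraries, against 7.54, 8.44, 10.2 and 9.21 CPM in WT libraries. Its groups did not overlap, with a log2 fold change of 0.39, an unadjusted p of 0.00865 and an adjusted p of 0.361 (edgeR). Of the 69 tested genes in the 4 lists, 2 did not overlap higher and 0 lower. The shares over all genes were 1.88% and 3.47%. Pprc1, a coactivator related to Ppargc1b, had a log2 fold change of 0.13, and 0.06 without replicate 3 labelled Nsun5-KO. The nuclear receptor Esrra had 67.6, 72.3, 56.2 and 56.4 CPM in Nsun5-KO-labelled libraries, against 35.2, 38.1, 69.7 and 70.9 CPM in WT libraries. Its log2 fold change was 0.27, and -0.13 without WT replicates 1 and 2, the lowest libraries.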

How the data were processed

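The submitters' processing notes name HISAT2 2.0.5 and the build mm10. How reads were counted, with which annotation and with what treatment of multiply mapping reads, is not given in the sources used here. For each gene the authors deposited raw whole-number counts. They also deposited FPKM values, which are these counts scaled by gene length and by a constant for each library, 0.9813 to 1.022 times its total. All 37 mitochondrial genes have the same start and end in GENCODE M21, whose transcripts (GRCm38) were aligned to each other with BLAST+ 2.17.0 to find nuclear copies.

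Counts of all genes were tested in edgeR 4.0.16 (R 4.3.3) with filterByExpr by group, TMM scaling and the robust quasi-likelihood test over 8 libraries without covariates. P-values were adjusted by Benjamini-Hochberg over all 16062 genes tested, and calls were made at 0.05. CPM is the count scaled by the library total, without TMM. Alternatives used DESeq2 1.42.0, limma 3.58.1 on log2 FPKM with a pseudocount of 1 or 0.1, other scalings, no filter, a replicate block and left-out libraries. Scripts were tested on simulated data. The tRNA genes singled out with values, and the chromosome 1 copies, were picked after their values were seen. The members, gene lists and named genes (protein and rRNA genes, tRNA genes, Nsun5, Tfam, Polrmt and the 3 smallest p per nuclear list) were chosen with earlier results of these data known. Prorp was listed but not found by that symbol. Wilson intervals and zero-count limits cover counting error only. Replicates differed by more than sampling noise (chi-square per degree of freedom 7.74 to 22.3).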

Additional observations from a re-analysis of the deposited data

Results flagged for a closer look

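In 104 groups of 4 libraries examined, 2 held a library far from the other 3 by Dixon's criterion, which chance meets in about 1 of 20 groups. For mt-Tn, replicate 4 labelled Nsun5-KO had 39.04 CPM and the other libraries with that label had 24.82 to 25.17 CPM. For Fastkd5, replicate 2 labelled Nsun5-KO had 3.947 CPM and the other libraries with that label had 4.499 to 4.599 CPM.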

How the results depend on the processing

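No mitochondrial gene and no gene of the nuclear lists was called under any of the 20 alternatives to the main test. Over all genes the main count of 0 became 68 with no low-count filter, 97 with DESeq2, and 0 to 2 with 1 library left out. The median log2 fold change of the protein genes was -0.197, from -0.287 to -0.131 with 1 library left out (at least 11 of 13 genes below 0) and -0.0378 without WT replicates 1 and 2. That last setting, chosen after seeing the data, brought the mitochondrial share difference to -0.037 percentage points (-0.800 with all libraries, -1.91 in FPKM). Of the 30 tested mitochondrial genes it turned 10 above 0 and 3 below. Among the genes named with values these were mt-Co1 0.0316, mt-Nd1 0.034, mt-Nd5 0.0348, mt-Nd2 0.0673, mt-Rnr2 0.151, mt-Rnr1 0.103, mt-Nd6 0.00118, mt-Nd3 0.0503, mt-Tp 0.0158 and mt-Tm -0.0942, and of the nuclear genes Polg -0.0064 and Esrra -0.126. The difference in tRNA share of mitochondrial signal was 0.0412 percentage points in counts and 0.688 in FPKM, which divides by gene length. With 1 library left out, the range included both signs for the mt-Nd6 share (-0.0332 to 0.0619 percentage points), the complex V share (-0.0605 to 0.0539 percentage points, -0.00912 with all libraries), mt-Rnr2 (-0.171 to 0.0221), mt-Rnr1 (-0.0852 to 0.0335), mt-Atp6 (-0.291 to 0.129), mt-Nd3 (-0.107 to 0.0425), mt-Nd4l (-0.587 to 0.0921), Gm10925 (-0.112 to 0.89), Gm28437 (-0.413 to 0.248), Tfam (-0.0397 to 0.0242) and Polrmt (-0.0542 to 0.0192). Without replicates 1 and 3 labelled Nsun5-KO, mt-Atp6 was 0.0318, Gm10925 -0.0172, Gm28437 -0.439, Tfam 0.0519 and Polrmt 0.0163. With the chromosome 1 copies added mt-Atp6 was 0.187, and with replicate 1 labelled Nsun5-KO also left out mt-Rnr1 was 0.00775. These settings too were chosen after seeing the data. Gm28437 was -0.087 and -0.0903 in limma with pseudocounts of 1 and 0.1. Of 826 values of 42 genes under alternatives, 786 kept their direction and side of the threshold, and 40 reversed; the cause was not tested. Same-numbered libraries did not deviate together (correlations -0.213 to 0.0631). Such correlations also hold other differences between libraries, so they cannot decide whether libraries were paired by design. The main test therefore did not use the replicate block, which was fitted only as an alternative. With it no gene was called, the median was -0.19, Gm28437 was -0.0825, and sign-flip permutation gave an exact p of 0.500 for the rRNA ratio and 0.875 for the mt-Nd6 share. Depth limits mt-Atp8 and most tRNA genes, which rest on under 100 counts per library.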
